A study of Mus musculus with 15 samples.

Results

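The genes described here encode the proteins of tight, gap and desmosomal junctions in mouse embryonic stem cells. They were taken by symbol, and the set itself was chosen with earlier results of these data known. It holds the rows of the count table named for a claudin, a connexin, a zonula occludens scaffold (the Tjp genes), occludin or a related membrane protein. Rows named for a Crumbs or Par polarity protein, a desmoglein, a desmocollin or a desmosomal plaque protein were also included. This gave 66 of the 24451 genes in the table: 23 claudins, 19 connexins, 7 tight junction scaffolds and other membrane proteins, 5 polarity proteins, 6 desmosomal cadherins and 6 desmosomal plaque proteins. The cells were of the ES-R1 line, cultured without serum in N2/B27 medium and profiled by RNA sequencing over 4 days of differentiation. The 5 groups of 3 libraries were Vprbp siRNA with Activin A at 25 ng/ml, control siRNA with Activin A at 25 ng/ml, control siRNA with an inhibitor called SB here, Vprbp siRNA with no addition, and control siRNA with no addition. All cells were of 1 line and all carried an siRNA, while SB was given only together with control siRNA. The inhibitor is spelled SB431524 in the titles of the samples and SB431542 in the text of the series, and no dose is stated for it. Activin A is a ligand of the TGF-beta family that signals through type I receptor kinases, SB431542 blocks those kinases, and Vprbp (also Dcaf1) selects substrates for the ubiquitin ligase CRL4.

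Tight junctions seal the space between neighbouring epithelial cells: claudins form the strands, occludin and the related Marveld2 and Marveld3 lie in the same membrane, and the Tjp proteins tie the strands to actin. Gap junctions are channels that connexins, encoded by the Gja, Gjb, Gjc and Gjd genes, form between cells. Desmosomes join cells mechanically: desmogleins and desmocollins bridge the gap, and plakoglobin (Jup), plakophilins (Pkp genes) and desmoplakin (Dsp) link them to intermediate filaments. After implantation, the pluripotent cells of the mouse embryo form an epithelium and carry tight and gap junctions.

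Between 11.1 M and 15.5 M counts per library (M, mega) were assigned to genes, and the upper limit that a count of 0 allows, taken as 3 counts, lay between 0.196 and 0.271 CPM. Levels are given as CPM, the counts of a gene scaled to 1 M counts per library. Vprbp had 149, 131 and 135 CPM in Vprbp siRNA cells with Activin and 178, 175 and 184 CPM in control siRNA cells with Activin. Without Activin it had 121, 132 and 114 CPM in Vprbp siRNA cells and 173, 167 and 173 CPM in control siRNA cells, so Vprbp mRNA was lowered but not lost. It fell by 0.37 on the log2 scale with Activin (SE 0.06, adjusted p = 0.0374) and by 0.49 without (SE 0.06, adjusted p = 0.00205). The 8 pluripotency markers checked against the cell label (among them Pou5f1, Sox2 and Nanog) were detected in every group. In a principal component plot of all genes, 3 libraries lay apart from their groups: Vprbp siRNA with Activin replicate 1, Vprbp siRNA replicate 3 and control siRNA replicate 3. Results that depend on them are given with and without them. Whether the replicates were separate cultures is not stated in the labels. The p-values therefore reflect the spread among these libraries alone, which could be technical.

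Of the 66 genes, 39 had enough counts to be tested: 10 claudins, 10 connexins, all 7 tight junction scaffolds and other membrane proteins, all 5 polarity proteins, 2 desmosomal cadherins and 5 desmosomal plaque proteins. The other 27 stayed at or below 1.04 CPM in every library, a level reached by Cldn1, and Cldn16, Cldn17 and Dsc1 had no count at all. The highest mean level per kilobase of exon over all 15 libraries belonged to Gja1 (connexin 43), at 80.6 CPM per kb. Jup had 70.7 and Tjp1 67.5 CPM per kb. Cldn6 and Cldn4 were the most abundant claudins per length, at 47.7 and 39.8 CPM per kb. The most abundant genes of the remaining roles were Pard3 among the polarity genes and Dsg2 among the desmosomal cadherins by CPM.

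The comparisons with control siRNA ask what adding Activin or blocking its receptors did to the junction genes. Values that follow are log2 fold changes ± SE from an edgeR quasi-likelihood fit to all 15 libraries, with p-values adjusted by Benjamini-Hochberg over all genes tested and a threshold of 0.05; rose and fell are used only past it. With Activin against SB, 11 of the 39 genes were higher and 11 lower, which is 56.4% of them, where 38.0% of all 14600 genes tested passed (19.0% higher and 19.0% lower). With SB against no addition, 11 were higher and 8 lower (48.7%), where 22.6% of all genes tested passed (11.2% higher and 11.3% lower). With Activin against no addition, 4 were higher and 2 lower (15.4%), where 4.83% of all genes tested passed (2.95% higher and 1.88% lower). The median log2 fold change of the 39 genes was 0.11 for Activin against SB, 0.03 for SB and 0.14 for Activin, against -0.00, -0.00 and -0.01 over all genes tested. The Activin and SB comparisons use the same untreated libraries and are therefore not independent.

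**Figure D1:**
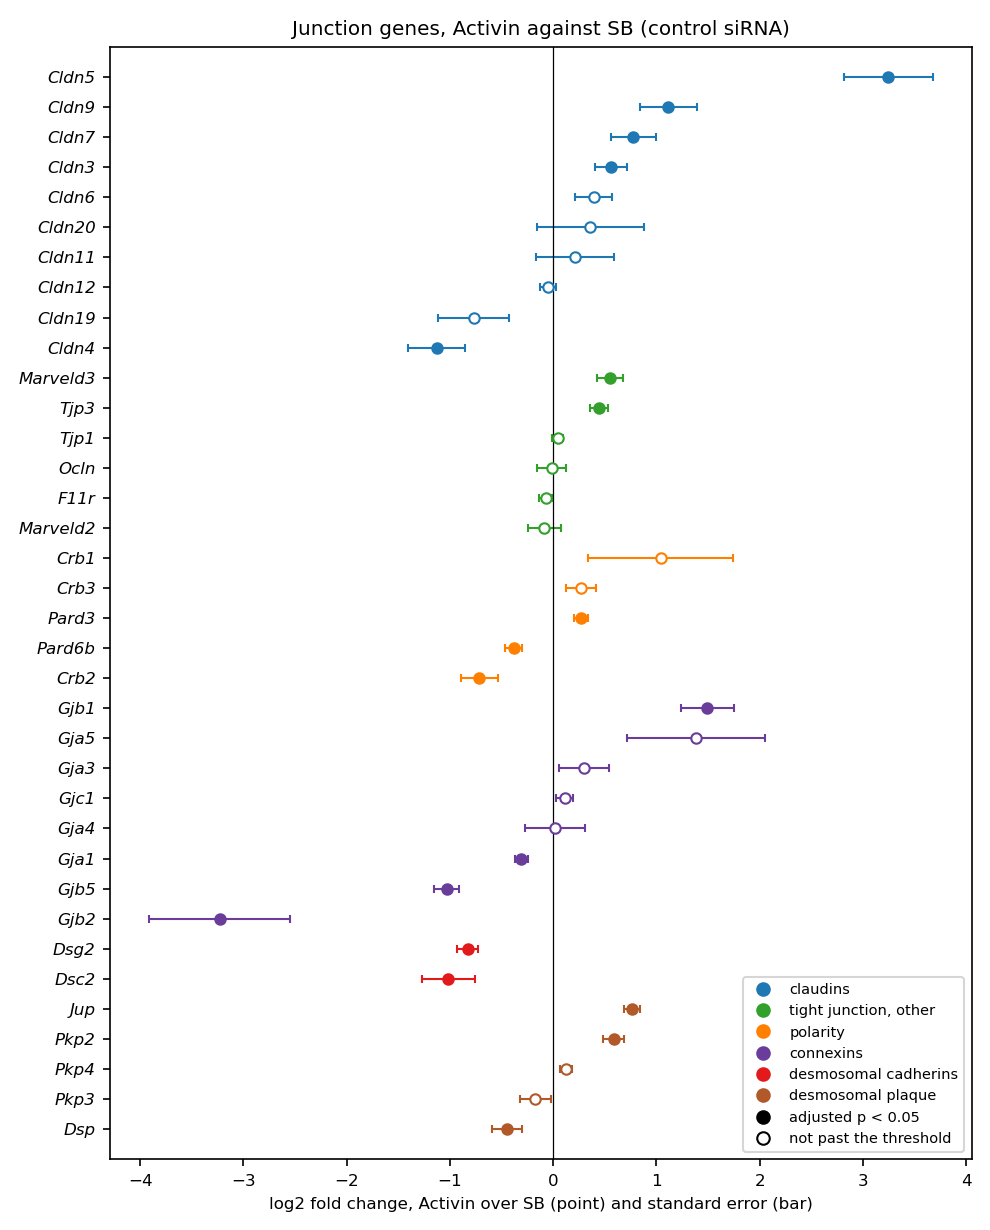
Log2 fold change of 36 of the 39 tested junction genes, Activin over SB with control siRNA (point) with its standard error (bar), grouped by role; filled points passed an adjusted p of 0.05 over all genes tested. Cldn5 at 3.25 and Gjb2 at -3.23 are the extremes, and claudins, connexins, polarity and plaque genes each lie on both sides of 0.

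Among the claudins, Cldn3, Cldn5, Cldn7 and Cldn9 were higher with Activin than with SB and Cldn4 was lower. Cldn3, a claudin of simple epithelia, had 20.9, 17.3 and 20.2 CPM with Activin, 14.1, 13.5 and 12.0 CPM with SB and 9.97, 12.1 and 11.4 CPM in untreated cells. Every Activin library was above every SB and untreated library. Cldn3 rose by 0.81 ± 0.16 with Activin against no addition (adjusted p = 0.00495), and it was the one junction gene of this comparison that passed under every alternative setting. Against SB the difference was 0.56 ± 0.15 (adjusted p = 0.00656). Cldn4, another claudin of simple epithelia, went the other way, with 52.8, 49.7 and 58.3 CPM with Activin, 119, 117 and 115 CPM with SB and 52.3, 61.7 and 112 CPM in untreated cells. The SB libraries were all far above the Activin libraries, and the untreated libraries were split, with replicate 3 close to the SB level. Activin against SB gave -1.13 ± 0.28 (adjusted p = 0.00791). For SB over no addition the value was 0.64 ± 0.27 (adjusted p = 0.123), and 1.04 ± 0.20 (adjusted p = 0.00358) without control siRNA replicate 3.

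Cldn5, best known from the blood-brain barrier, was low throughout, with 4.05, 2.35 and 3.37 CPM with Activin, 0.508, 0.217 and 0.286 CPM with SB and 1.97, 1.38 and 1.27 CPM in untreated cells. The 3 groups did not overlap, and the SB libraries lay at or little above the limit that a count of 0 allows. It was 3.25 ± 0.43 higher with Activin than with SB (adjusted p = 5.49e-06) and fell by 2.17 with SB against no addition (SE 0.47, adjusted p = 0.00191). Activin against no addition gave 1.08 ± 0.33 (adjusted p = 0.0661), and an adjusted p of 0.0407 in a fit of those 6 libraries alone. Cldn7, a claudin of simple epithelia, had 18.5, 16.9 and 18.1 CPM with Activin, 11.7, 11.0 and 8.59 CPM with SB and 8.95, 8.26 and 14.1 CPM in untreated cells. Activin exceeded SB by 0.78 ± 0.22 (adjusted p = 0.00988; 0.0511 without SB replicate 3). Against no addition the value was 0.78 ± 0.22 (adjusted p = 0.0509), and 1.05 ± 0.21 (adjusted p = 0.0112) without control siRNA replicate 3. Cldn9 had 3.90, 2.98 and 3.30 CPM with Activin, 1.96, 1.16 and 1.57 CPM with SB and 3.05, 2.54 and 3.07 CPM in untreated cells. Its SB libraries were below all the others, and Activin over SB was 1.12 ± 0.27 (adjusted p = 0.00292). SB over no addition gave -0.88 ± 0.28 (adjusted p = 0.0252), and adjusted p-values of 0.0546 to 0.118 when control siRNA replicate 1 or 3, or SB replicate 2 or 3, was left out.

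Cldn6, a claudin of embryonic epithelia and the most abundant claudin here, had 90.4, 88.7 and 91.1 CPM with Activin, 78.4, 64.4 and 63.2 CPM with SB and 62.0, 60.9 and 63.3 CPM in untreated cells. All Activin libraries were above all others, but the fold change of 0.54 ± 0.18 against no addition missed the threshold (adjusted p = 0.107). Its adjusted p was 0.0134 with DESeq2, 3.14e-04 in a fit of those 6 libraries alone and 0.0406 without the 3 libraries that lay apart. Activin against SB gave 0.39 ± 0.18 for Cldn6 (adjusted p = 0.0984), and an adjusted p of 0.0194 without the 3 libraries that lay apart, 0.0315 with DESeq2 and 1.39e-05 in a fit of only the libraries compared. Cldn12 stayed between 55.3 and 65.4 CPM over these 9 libraries. Cldn11, Cldn19 and Cldn20, all with mean levels of at most a few CPM, did not pass in any of these comparisons, with Cldn19 at -0.77 ± 0.34 for Activin against SB (adjusted p = 0.0824, and 0.0431 without the 3 libraries that lay apart). Per kilobase of exon, Cldn4 was above Cldn6 in the SB libraries (65.8, 64.3 and 63.4 against 45.5, 37.4 and 36.7 CPM per kb) and below it in the Activin libraries (29.1, 27.4 and 32.1 against 52.5, 51.6 and 52.9 CPM per kb).

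**Figure D2:**
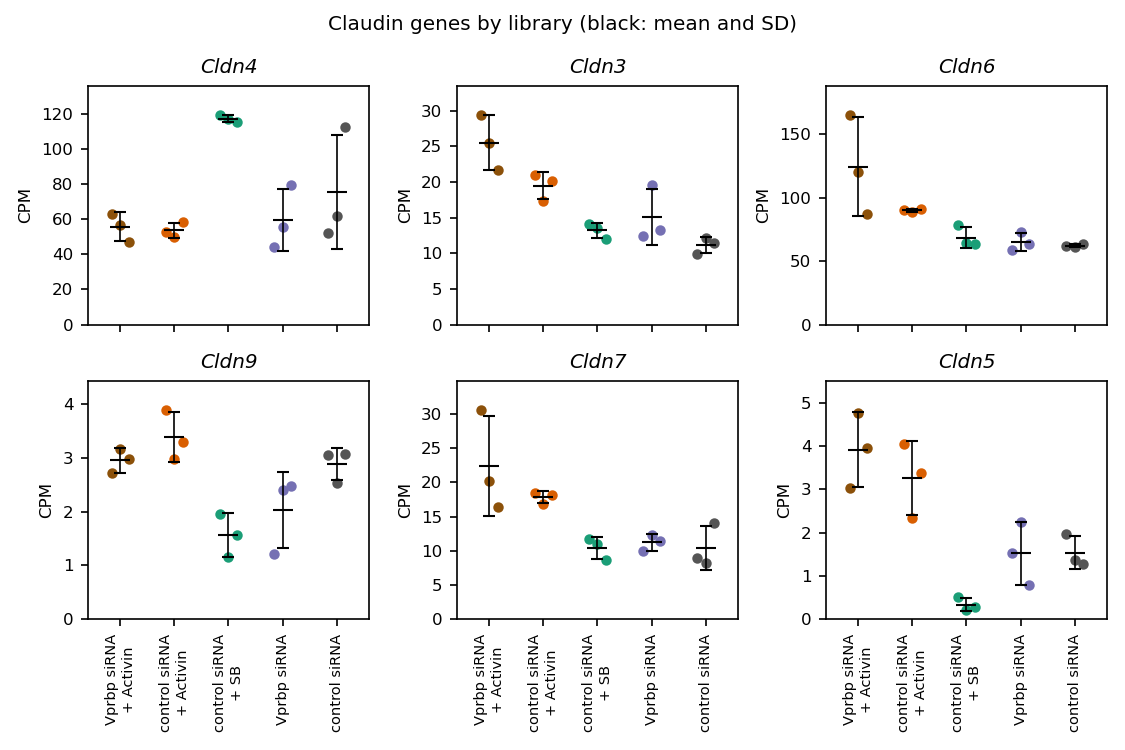
Level of 6 claudin genes in CPM (y axis, from 0) in each library of the 5 groups (points), with mean and SD (black, n = 3). Cldn4 has 115 to 119 CPM in the SB libraries and 49.7 to 58.3 CPM in the control siRNA libraries with Activin, while control siRNA replicate 3 reaches 112 CPM; Cldn3 and Cldn4, which are neighbours in the genome, do not move together.

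Cldn3 and Cldn4 are neighbours on chromosome 5 (build mm10, with gene models of GENCODE vM21 on the same assembly). Cldn3 spans 134986214 to 134987472 on the plus strand and Cldn4 spans 134945119 to 134946934 on the minus strand. Cldn6 and Cldn9 are neighbours on chromosome 17, where Cldn6 spans 23679249 to 23682446 on the plus strand and Cldn9 spans 23682584 to 23684026 on the minus strand. The promoter windows of the neighbours that split between Activin and SB, and that of Cldn6, the most abundant claudin, are given from RefSeq (GRCm38.p6), from 250 bases before to 50 bases after the start, 5′ to 3′ on the gene's strand. The capitals mark CACCTG or its reverse complement CAGGTG, the E-box that Snail and Zeb repressors bind. The windows are chr5:134985964-134986263 (plus strand) for Cldn3, chr5:134946885-134947184 (minus strand) for Cldn4 and chr17:23679115-23679414 (plus strand) for Cldn6.
Cldn3: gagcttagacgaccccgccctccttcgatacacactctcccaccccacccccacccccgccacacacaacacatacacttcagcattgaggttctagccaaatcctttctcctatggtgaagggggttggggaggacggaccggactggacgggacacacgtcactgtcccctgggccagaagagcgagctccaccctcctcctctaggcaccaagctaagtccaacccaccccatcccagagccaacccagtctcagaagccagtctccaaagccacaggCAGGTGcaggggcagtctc
Cldn4: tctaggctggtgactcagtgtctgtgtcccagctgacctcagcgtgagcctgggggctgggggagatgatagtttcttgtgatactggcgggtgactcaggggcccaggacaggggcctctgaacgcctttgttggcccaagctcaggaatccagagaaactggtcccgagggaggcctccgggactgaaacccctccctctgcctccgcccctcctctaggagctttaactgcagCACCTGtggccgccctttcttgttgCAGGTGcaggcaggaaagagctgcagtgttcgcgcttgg
Cldn6: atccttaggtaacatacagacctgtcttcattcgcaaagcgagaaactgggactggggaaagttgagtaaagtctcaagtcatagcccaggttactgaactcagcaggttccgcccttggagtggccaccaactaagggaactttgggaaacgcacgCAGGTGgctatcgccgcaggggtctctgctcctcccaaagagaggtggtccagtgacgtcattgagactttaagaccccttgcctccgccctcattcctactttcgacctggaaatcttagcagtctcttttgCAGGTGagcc

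Counted from the start, the motif stands at 31 in the Cldn3 window, at -14 and 11 in the Cldn4 window and at -93 and 40 in the Cldn6 window, so the neighbours that differ in direction both hold it. Of the 66 genes, 44 have a window in this table, with 62 windows between them. CACCTG occurs on either strand in 23 of those 62 windows, belonging to 19 genes, and in 20.2% of all 32851 windows. The palindrome AACCGGTT, a Grainyhead-like motif, occurs in 0 of the 62 windows and in 0.146% of all windows. TGTGGATT, a Foxh1 motif searched on both strands, occurs in the windows of Cldn10 and Ocln and in 0.855% of all windows. These matches describe letters only.

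Among the tight junction scaffolds and other membrane proteins, Tjp3 and Marveld3 were among those higher with Activin than with SB, while Tjp1, Ocln, F11r and Marveld2 did not pass in that comparison. Tjp1 (ZO-1), the most abundant gene of this role by CPM, had 484, 507 and 487 CPM with Activin, 462, 492 and 479 CPM with SB and 471, 483 and 451 CPM in untreated cells. Its difference between Activin and SB was 0.04 ± 0.05 (adjusted p = 0.553). Tjp3 (ZO-3) had 48.7, 44.7 and 48.3 CPM with Activin, 36.0, 37.3 and 30.8 CPM with SB and 43.2, 44.7 and 44.2 CPM in untreated cells. SB against no addition gave -0.34 ± 0.09 (adjusted p = 0.00822; 0.0651 without SB replicate 3), and Activin against no addition gave 0.10 ± 0.09 (adjusted p = 0.549).

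Occludin, Marveld2 (tricellulin) and F11r (junctional adhesion molecule A) had higher values both with Activin and with SB than without addition. Marveld2 had 12.0, 12.0 and 11.4 CPM with Activin, 15.6, 10.3 and 11.7 CPM with SB and 8.41, 9.56 and 6.96 CPM in untreated cells. The untreated libraries were the lowest of the 9. Marveld2 was 0.59 ± 0.16 higher with SB (adjusted p = 0.0119; 0.109 without SB replicate 1), and Activin against no addition gave 0.50 ± 0.17 (adjusted p = 0.0846). Ocln, its neighbour on chromosome 13, had 13.2, 12.3 and 11.9 CPM with Activin, 13.5, 13.0 and 11.2 CPM with SB and 9.09, 8.33 and 9.58 CPM in untreated cells. SB gave 0.48 ± 0.14 (adjusted p = 0.018, and 0.0577 to 0.0795 without control siRNA replicate 2 or SB replicate 1 or 2), and Activin gave 0.47 ± 0.14 (adjusted p = 0.0658, and 0.0479 without the 3 libraries that lay apart). F11r had 106, 111 and 113 CPM with Activin, 112, 110.2 and 125 CPM with SB and 95.7, 101 and 101 CPM in untreated cells. SB gave 0.22 ± 0.06 for F11r (adjusted p = 0.0147; 0.0728 without control siRNA replicate 1 and 0.0916 without SB replicate 3). Marveld3, which has the same kind of membrane domain as occludin, had 14.1, 15.1 and 15.9 CPM with Activin, 10.2, 11.4 and 9.16 CPM with SB and 9.63, 10.7 and 11.5 CPM in untreated cells. Here only the Activin libraries stood apart, at 0.50 ± 0.13 above no addition (adjusted p = 0.0297) and 0.55 ± 0.13 above SB (adjusted p = 0.00199). The difference from no addition had adjusted p-values of 0.0540 to 0.123 when control siRNA replicate 1 or 2 or any 1 Activin library was left out.

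The polarity genes encode the Par and Crumbs proteins that place the tight junction at the apical border. Pard3 had 150.2, 149.7 and 154 CPM with Activin, 121, 125 and 131 CPM with SB and 155, 155 and 183 CPM in untreated cells. All SB libraries were the lowest, and Pard3 fell by 0.39 with SB against no addition (SE 0.07, adjusted p = 3.21e-04). Pard6b, its partner in the Par complex, had 51.7, 46.3 and 47.0 CPM with Activin, 62.2, 65.7 and 61.1 CPM with SB and 55.7, 50.6 and 52.9 CPM in untreated cells, so here the SB libraries were the highest. Pard6b was 0.38 ± 0.08 lower with Activin than with SB (log2 -0.38, adjusted p = 0.00124). With SB over no addition the value was 0.25 ± 0.08 for Pard6b (adjusted p = 0.0377), and adjusted p-values of 0.0567 to 0.141 when any 1 SB library or control siRNA replicate 2 or 3 was left out. Crb2, a Crumbs protein, had 6.96, 5.78 and 7.47 CPM with Activin, 12.3, 12.1 and 9.02 CPM with SB and 8.61, 7.17 and 6.96 CPM in untreated cells. Activin against SB gave -0.71 ± 0.18 for Crb2 (adjusted p = 0.00386). SB against no addition gave 0.55 ± 0.18 (adjusted p = 0.0302), and 0.0783 to 0.122 as adjusted p without control siRNA replicate 2 or 3 or SB replicate 1 or 2. Crb3, the Crumbs protein of most epithelia, had 17.6, 17.3 and 17.4 CPM with Activin and 14.4, 13.4 and 15.7 CPM with SB, a difference of 0.27 ± 0.14 (adjusted p = 0.147). Crb1 stayed below 1 CPM in these 9 libraries.

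Among the connexins, Gja1, Gjb2 and Gjb5 were among those lower with Activin than with SB and Gjb1 was higher. Gjb5 (connexin 31.1) had 10.6, 11.1 and 12.0 CPM with Activin, 22.8, 21.5 and 24.6 CPM with SB and 14.4, 16.1 and 18.3 CPM in untreated cells. The 3 groups did not overlap, with the untreated libraries between the Activin and the SB libraries. With Activin against SB, Gjb5 differed by -1.03 ± 0.12 (adjusted p = 1.32e-06). With SB against no addition it was 0.50 ± 0.12 higher (adjusted p = 0.00363). With Activin against no addition it fell by 0.53 (SE 0.12, adjusted p = 0.0169), and the adjusted p was 0.0651 to 0.0968 without control siRNA replicate 3 or Activin replicate 1 or 2.

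Gjb5 spans 127354809 to 127358181 on chromosome 4 (mm10), on the minus strand, and Gja4 (connexin 37) spans 127311421 to 127314039 on the same strand. Gja4 had 2.75, 2.53 and 3.17 CPM with Activin, 3.34, 2.02 and 3.01 CPM with SB and 2.51, 3.19 and 1.95 CPM in untreated cells. The 3 groups overlapped, and Activin and SB differed by 0.02 ± 0.29 (adjusted p = 0.964). Gja4 and Gjb5, which are not directly adjacent, thus gave unlike values.

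Gja1, the most abundant connexin, had 239.9, 265 and 272 CPM with Activin, 306, 331 and 326 CPM with SB and 225, 216 and 219 CPM in untreated cells. The untreated libraries were the lowest and the SB libraries the highest. SB was 0.55 ± 0.06 above no addition (adjusted p = 3.79e-06), and Activin was -0.31 ± 0.06 relative to SB (adjusted p = 8.31e-04). Activin was 0.24 ± 0.07 above no addition (adjusted p = 0.0403), and 0.0576 to 0.174 as adjusted p when any 1 untreated library or Activin replicate 2 or 3 was left out. Gjb1 (connexin 32) had 12.2, 9.57 and 11.1 CPM with Activin, 1.96, 5.71 and 4.01 CPM with SB and 11.1, 11.0 and 7.56 CPM in untreated cells. All SB libraries were below the others, at -1.35 ± 0.25 against no addition (adjusted p = 7.71e-04), and Activin was 1.49 ± 0.25 above SB (adjusted p = 1.48e-04). Gjb2 (connexin 26) had 0.535, 1.08 and 1.39 CPM with Activin, 11.7, 8.17 and 8.87 CPM with SB and 1.63, 1.88 and 7.64 CPM in untreated cells. As for Cldn4, untreated replicate 3 lay near the SB libraries. Activin against SB gave -3.23 ± 0.68 for Gjb2 (adjusted p = 0.00272). For SB over no addition it was 1.38 ± 0.56 (adjusted p = 0.107), and 2.44 ± 0.49 (adjusted p = 0.00217) without control siRNA replicate 3. Gjc1 (connexin 45), with 66.4 to 72.3 CPM with Activin and 61.9 to 66.4 CPM with SB, Gja3 and Gja5 did not pass between Activin and SB. Gja3 against no addition with SB gave -0.55 ± 0.24 (adjusted p = 0.104), and -0.73 ± 0.25 (adjusted p = 0.0339) without control siRNA replicate 3.

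**Figure D3:**
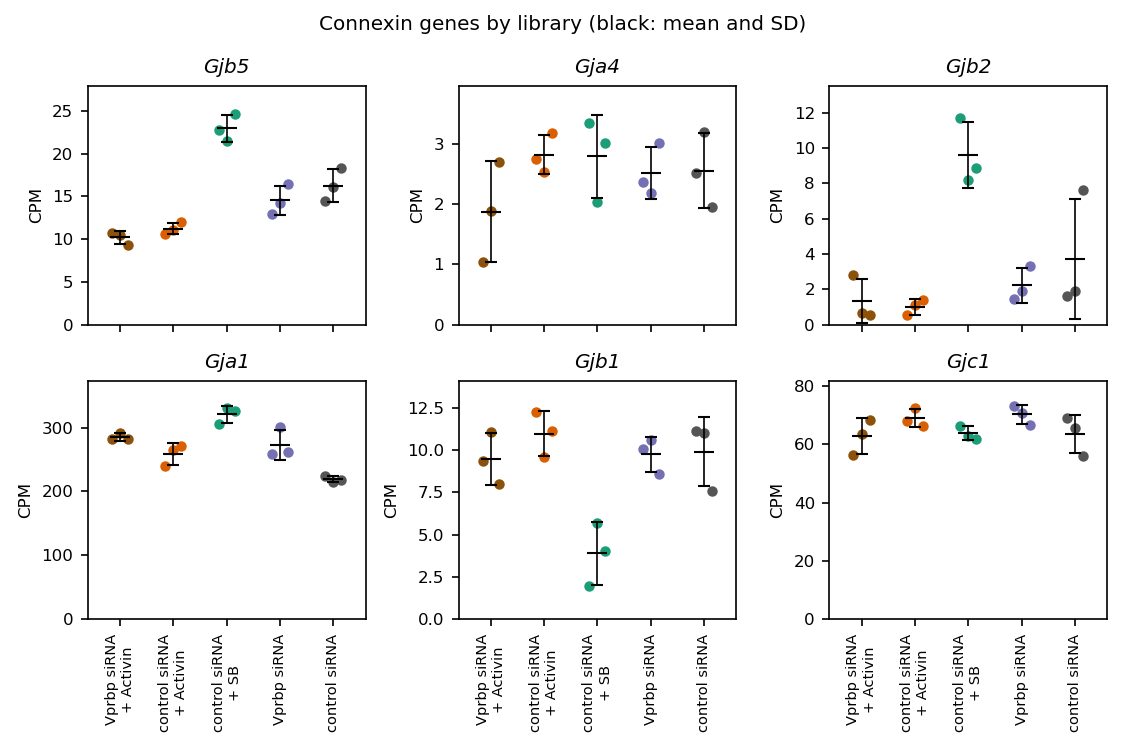
Level of 6 connexin genes in CPM (y axis, from 0) in each library of the 5 groups (points), with mean and SD (black, n = 3). Gjb5 is lowest in the Activin groups and highest with SB, Gja1 is lowest in untreated control siRNA cells, and Gjb1 is lowest with SB, at 1.96 to 5.71 CPM.

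Within the desmosome, both tested cadherins were lower with Activin than with SB while the plaque proteins plakoglobin and plakophilin 2 were higher. Dsg2 (desmoglein 2) had 50.8, 48.7 and 47.0 CPM with Activin, 87.4, 81.8 and 90.8 CPM with SB and 53.4, 52.6 and 57.7 CPM in untreated cells. Dsc2 (desmocollin 2) had 8.87, 7.85 and 8.19 CPM with Activin, 16.6, 18.4 and 15.5 CPM with SB and 7.93, 6.01 and 8.61 CPM in untreated cells. For both cadherins the SB libraries stood above all 6 others. With SB against no addition, Dsg2 was 0.67 ± 0.10 higher (adjusted p = 3.77e-05) and Dsc2 1.16 ± 0.26 higher (adjusted p = 0.00381). Jup, which also serves in adherens junctions, had 259.6, 251 and 267 CPM with Activin, 144, 165 and 149.6 CPM with SB and 221, 229 and 193 CPM in untreated cells. The groups did not overlap, with Activin highest and SB lowest. Jup was 0.76 ± 0.07 higher with Activin than with SB (adjusted p = 1.28e-07), a 1.70-fold difference, and fell by 0.49 with SB against no addition (SE 0.07, adjusted p = 7.05e-05). Activin against no addition gave 0.28 ± 0.07 for Jup (adjusted p = 0.0381). That difference had adjusted p-values of 0.0507 to 0.187 when control siRNA replicate 1 or 3 or any 1 Activin library was left out, and 0.0859 without the 3 libraries that lay apart.

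Pkp2 (plakophilin 2) had 94.2, 88.3 and 84.4 CPM with Activin, 61.2, 60.5 and 55.5 CPM with SB and 83.1, 76.0 and 59.8 CPM in untreated cells. Activin exceeded SB by 0.59 ± 0.10 (adjusted p = 1.37e-04). SB against no addition gave -0.31 ± 0.10 (adjusted p = 0.0361), with overlapping libraries and adjusted p-values of 0.0624 to 0.202 when control siRNA replicate 1 or 2 or any 1 SB library was left out, and of 0.0616 when library totals replaced the scaling factors. Dsp had 64.9, 69.3 and 64.7 CPM with Activin, 89.5, 91.5 and 90.4 CPM with SB and 62.0, 60.1 and 68.0 CPM in untreated cells. Its SB libraries stood above the others, at 0.51 ± 0.15 against no addition (adjusted p = 0.0209) and, for Activin against SB, -0.45 ± 0.15 (adjusted p = 0.0265). The SB difference had adjusted p-values of 0.0508 to 0.0768 when control siRNA replicate 1 or 2 or any 1 SB library was left out. The Activin against SB difference had 0.0564 to 0.0757 when Activin replicate 1 or 3 or any 1 SB library was left out, and 0.0534 with no filter on low counts. Pkp3 and Pkp4 did not pass in these comparisons, with Pkp4 at 188, 196 and 202 CPM with Activin and 171, 182 and 184 CPM with SB (0.13 ± 0.06, adjusted p = 0.0767).

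**Figure D4:**
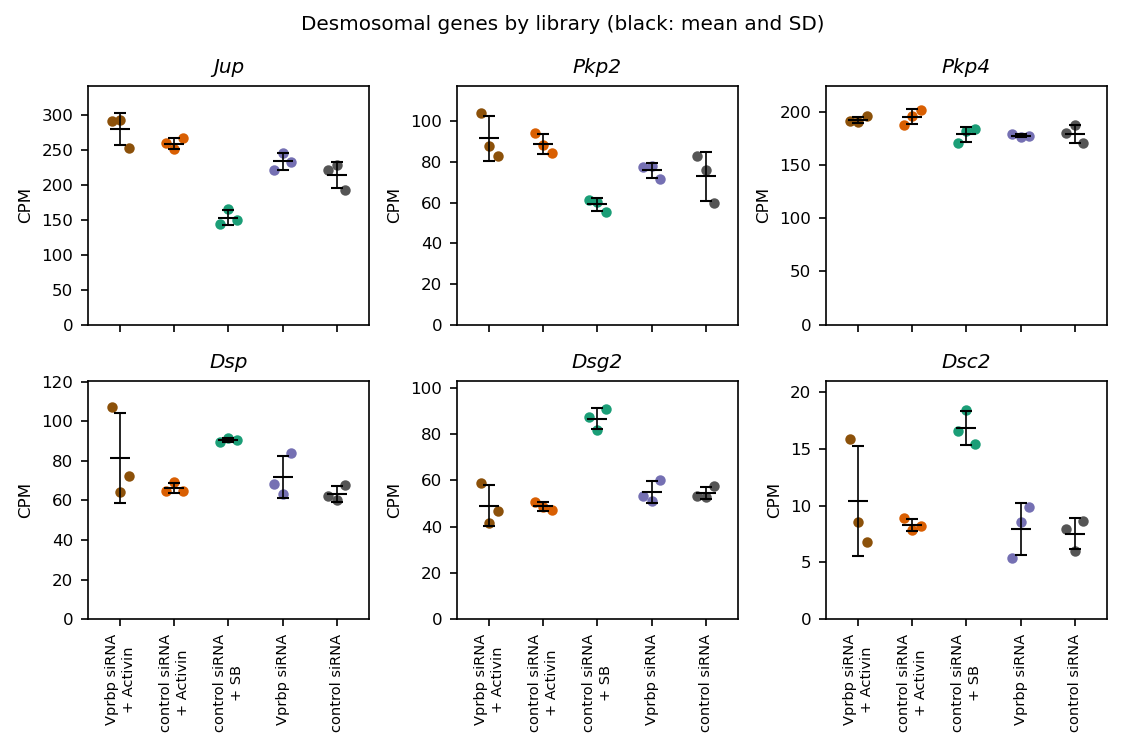
Level of 6 desmosomal genes in CPM (y axis, from 0) in each library of the 5 groups (points), with mean and SD (black, n = 3). In the SB libraries Jup and Pkp2 are low while Dsg2, Dsc2 and Dsp are high; Dsp at 107 CPM and Dsc2 at 15.9 CPM are also high in replicate 1 of Vprbp siRNA with Activin.

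Markers of other cell types differed between SB and no addition in both directions. Of all genes tested, 22.6% passed in this comparison (11.2% higher and 11.3% lower). Of 9 tested trophoblast markers, 5 (55.6%) were higher with SB than without addition (Gata2, Gata3, Hand1, Krt7 and Krt18). The summed level of the 10 listed markers was 302 to 355 CPM with SB and 197 to 218 CPM in untreated cells, where Elf5 was at 0. The 10 extraembryonic endoderm markers summed to 444 to 545 CPM with SB and 304 to 369 CPM in untreated cells, with Afp at 0 in both. Of the 9 tested, Col4a1, Lama1 and Sox7 (33.3%) were higher with SB. Col4a1 averaged 236 and Lama1 149 CPM with SB, against 144 and 99.0 CPM in untreated cells, while Gata6 averaged 14.6 CPM with SB and 20.3 CPM in untreated cells. Gata4 averaged 22.3 CPM with SB and 22.9 CPM in untreated cells. The 8 surface ectoderm markers summed to 20.6 to 25.1 CPM with SB, with Krt14 at 0, and 13.6 to 16.5 CPM in untreated cells. The 10 neuroectoderm markers summed to 283 to 305 CPM with SB and 258 to 349 CPM in untreated cells. Of the 9 tested, 3 were higher and 1 lower (44.4%). With Activin against SB 2 of them were higher and 6 lower (88.9%, where 38.0% of all genes tested passed). With Activin against no addition 1 was higher and 3 lower (44.4%, where 4.83% of all genes tested passed). The 10 fibroblast markers summed to 38.0 to 51.3 CPM with SB and 55.2 to 73.7 CPM in untreated cells. Of the 8 tested, 2 fell, and this 25.0% lies near the 22.6% of all genes tested. The 8 pluripotency markers summed to 2334 to 2671 CPM with SB and 3924 to 4306 CPM in untreated cells, and 6 of them (75.0%) fell. In these bulk samples fewer cells of a type and less RNA per cell cannot be told apart, and the part of these cell types in the SB results was not tested.

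Genes whose products work with these junctions were counted in the same fit. Of 38 tested partner genes (cadherins, catenins, junctional adhesion molecules and adaptors), 10 were higher and 11 lower with Activin than with SB (55.3%, beside 56.4% of the junction genes and 38.0% of all genes tested). Epcam, an adhesion protein that binds claudins, had 211, 205 and 209 CPM with Activin and 86.5, 91.9 and 93.1 CPM with SB, a difference of 1.20. Cdh1 (E-cadherin) was 0.75 higher and Ctnnb1 (beta-catenin) differed by -0.47, so the main adherens junction genes also split. With SB against no addition 7 partner genes were higher and 7 lower (36.8%, where 22.6% of all genes tested passed), and with Activin against no addition 5 were higher and 1 lower (15.8%, where 4.83% passed). Of 15 tested regulators of epithelial identity, 4 were higher and 5 lower with Activin than with SB (60.0%, where 38.0% of all genes tested passed). Grhl2, a Grainyhead-like factor that activates junction genes, had 30.7, 31.3 and 35.7 CPM with Activin, 11.3, 10.5 and 8.66 CPM with SB and 22.4, 21.2 and 19.8 CPM in untreated cells, and the groups did not overlap. It rose by 0.63 with Activin and fell by 1.06 with SB. Snai1, a repressor of Cdh1, had 4.28, 2.98 and 5.35 CPM with Activin, 16.1, 16.8 and 11.2 CPM with SB and 5.09, 5.58 and 7.94 CPM in untreated cells, and rose by 1.25 with SB. Esrp1, Ovol1 and Ovol2 went the same way as Grhl2, without overlap between the Activin and SB libraries. Esrp1 averaged 69.5 CPM with Activin and 44.5 CPM with SB, Ovol1 2.99 and 1.51 CPM, and Ovol2 5.00 and 1.90 CPM. Others on the list went against Grhl2 or stayed level. Esrp2 averaged 8.58 CPM with Activin and 14.8 CPM with SB, and Elf3 47.6 and 67.0 CPM, without overlap of the libraries. Grhl1 averaged 10.8 CPM with Activin and 10.7 CPM with SB. Of 10 tested keratins and plakins, the filament side of the desmosome, 3 were higher and 1 lower with SB against no addition (40.0%, where 22.6% of all genes tested passed): Krt7 by 1.58, Krt18 by 1.08 and Ppl by 0.40, with Evpl at -0.43.

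The response to Activin was measured a second time in cells with Vprbp siRNA, against Vprbp siRNA without addition, which shares no library with the control siRNA comparison. There 8 of the 39 genes were higher and 2 lower (25.6%), where 6.12% of all genes tested passed (3.65% higher and 2.47% lower). Cldn3 rose by 0.76 ± 0.15 (adjusted p = 0.00384), with 29.4, 25.4 and 21.7 CPM with Activin and 12.4, 19.5 and 13.3 CPM without. Marveld2 rose by 0.79 ± 0.16 (adjusted p = 0.00575), with 15.8, 12.1 and 13.0 CPM with Activin and 7.79, 9.01 and 6.87 CPM without. For both genes no library of one group overlapped the other, and they passed under every alternative.

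Other claudins also rose with Activin under Vprbp siRNA. Cldn6 had 166, 120.5 and 87.6 CPM with Activin and 58.6, 72.8 and 63.8 CPM without, with the 3 Activin libraries far apart from each other. Its change was 0.94 ± 0.18 (adjusted p = 0.00749, 0.0532 without Vprbp siRNA replicate 3 and 0.131 in a fit of those 6 libraries alone). Cldn7 had 30.6, 20.2 and 16.4 CPM with Activin and 9.92, 12.3 and 11.4 CPM without (0.99 ± 0.21, adjusted p = 0.0107; 0.0552 without Vprbp siRNA replicate 1 and 0.0544 without replicate 3). Cldn5 had 3.03, 4.76 and 3.95 CPM with Activin and 1.53, 2.25 and 0.785 CPM without (1.38 ± 0.33, adjusted p = 0.0139; 0.0524 to 0.102 without Vprbp siRNA replicate 1 or 3 or Vprbp siRNA with Activin replicate 2). Replicate 1 of Vprbp siRNA with Activin, 1 of the libraries that lay apart, had the highest Cldn6 and Cldn7 of its group, and also the highest Dsp (107 CPM, against 64.5 and 72.4), Dsc2 and Krt18 (200.3 CPM, against 110.1 and 75.0). The trophoblast markers summed to 394 CPM in that library and to 191 and 235 CPM in the others of its group, with Krt18 and Krt8 (83.4 CPM, against 30.6 and 17.3) making up most of it. The extraembryonic endoderm markers summed to 334 CPM there and to 245 and 252 CPM in the others. Among them Sox17 had 21.5 CPM, against 3.03 and 2.56, and Foxa2 had 23.1 CPM, against 4.04 and 2.91. The part of these cell types in the junction gene values was not tested.

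Crb3, F11r and Jup rose and Gjb5 fell as well with Activin under Vprbp siRNA. Crb3 had 24.4, 26.3 and 18.2 CPM with Activin and 12.8, 16.6 and 15.0 CPM without (0.63 ± 0.14, adjusted p = 0.00956). F11r had 124, 125 and 119 CPM with Activin and 96.4, 104 and 105 CPM without (0.27 ± 0.06, adjusted p = 0.0133). For Crb3 and F11r the adjusted p was 0.0533 to 0.0706 without Vprbp siRNA replicate 1 or Vprbp siRNA with Activin replicate 2. Jup had 292, 293 and 253 CPM with Activin and 222, 246 and 233 CPM without (0.26 ± 0.07, adjusted p = 0.0394). Gjb5 had 10.8, 10.5 and 9.29 CPM with Activin and 13.0, 14.2 and 16.4 CPM without (-0.51 ± 0.12, adjusted p = 0.016). For Jup the adjusted p was 0.104 to 0.159 without Vprbp siRNA replicate 1 or 3 or Vprbp siRNA with Activin replicate 1 or 2, and for Gjb5 it was 0.0568 to 0.127 without replicate 3 of either group. Without the 3 libraries that lay apart, the adjusted p was 0.0757 for Jup and 0.064 for Gjb5. In a fit of those 6 libraries alone it was 0.0562 for Crb3, 0.072 for F11r, 0.112 for Jup, 0.0833 for Gjb5 and 0.0655 for Cldn5.

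The 4 genes that passed under both siRNAs, among them Cldn3, Gjb5 and Jup, were 66.7% of the 6 genes called with control siRNA and 40.0% of the 10 called with Vprbp siRNA. All 12 genes called under either siRNA had the same sign under both. Over all genes tested, 705 passed with control siRNA and 894 with Vprbp siRNA, and their overlap and signs were not counted. Whether this agreement is particular to the junction genes was therefore not tested. The difference between the Activin responses, tested as an interaction, was called for 0 of the 39 genes with edgeR and 0 with DESeq2, and 0% of all genes tested passed. In the edgeR fit 2 of the 39 genes had an unadjusted p under 0.05, Crb3 (difference 0.45 ± 0.20) and Gjc1 (-0.28 ± 0.12). Of all 14600 genes tested, 517 did. For Cldn6 the difference was 0.40 ± 0.25 (adjusted p = 0.999), so a larger response under Vprbp siRNA was not shown.

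**Figure D5:**
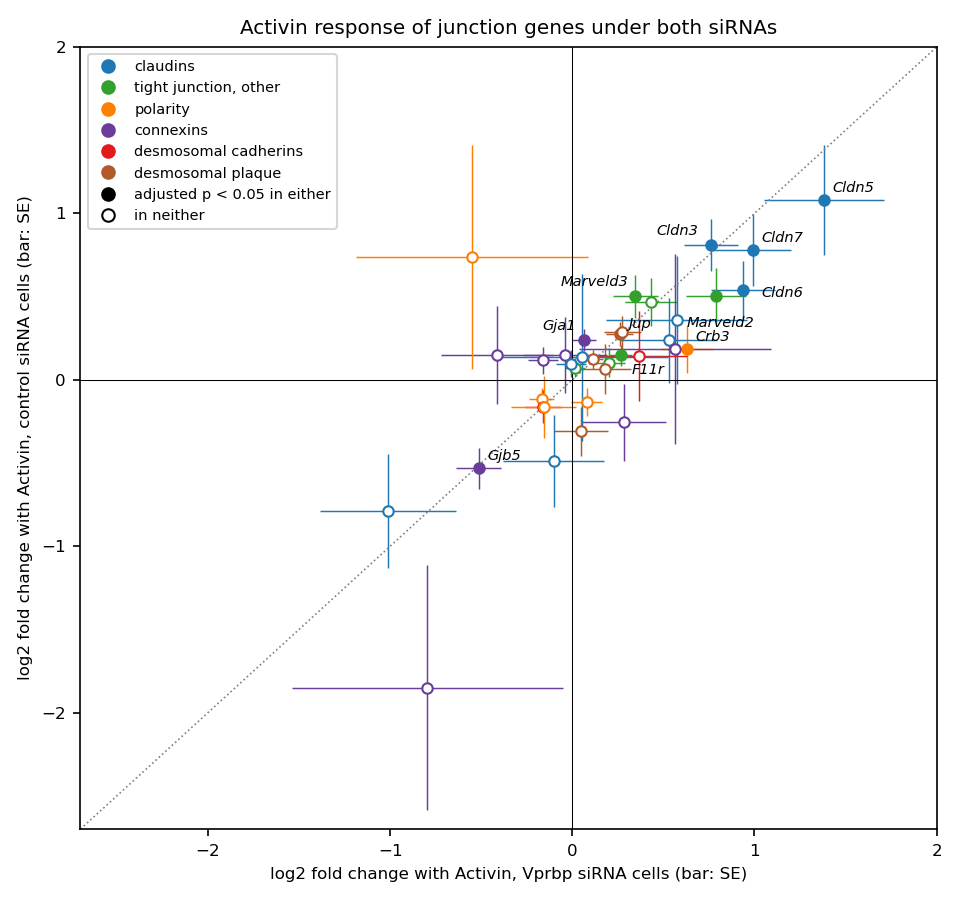
Log2 fold change with Activin against no addition for 36 of the 39 tested junction genes, with Vprbp siRNA (x axis) and with control siRNA (y axis), bars showing standard errors, the dotted line equality and filled points an adjusted p under 0.05 in either. Cldn3, Cldn5, Cldn6 and Cldn7 lie at the upper right and Gjb5 at the lower left, and all 11 filled points have the same sign on both axes.

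The knockdown comparisons ask what lowering Vprbp did to the same genes. Without Activin, 0 of the 39 genes passed with edgeR, where 0.0411% of all genes tested passed (0.0342% higher and 0.00685% lower). With DESeq2 1 passed, where 0.212% of all genes tested passed. In the edgeR fit 4 of the 39 genes had an unadjusted p under 0.05, as had 1191 of all 14600 genes tested. The gene closest to the threshold was Gja1, with 258, 300.2 and 262 CPM in Vprbp siRNA cells and 225, 216 and 219 CPM in control siRNA cells. All Vprbp siRNA libraries were higher, at 0.32 ± 0.06 (adjusted p = 0.112). With the replicate number as a block, which pairs the libraries of these groups, the Gja1 difference was 0.31 ± 0.06 (adjusted p = 0.0339). Its adjusted p was 0.00714 with DESeq2, 0.0203 without the 3 libraries that lay apart and 0.043 without Vprbp siRNA replicate 3. Among the others with an unadjusted p under 0.05 were Cldn3 at 0.43 ± 0.16 and Marveld3 at 0.35 ± 0.13.

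With Activin, 0 of the 39 genes passed with edgeR, where 0.0411% of all genes tested passed (0.0342% higher and 0.00685% lower). With DESeq2 0 passed, where 0.521% of all genes tested passed. In the edgeR fit 7 of the 39 genes had an unadjusted p under 0.05, as had 1532 of all 14600 genes tested. Cldn6 gave 0.47 ± 0.17 (adjusted p = 0.37), and 0.67 ± 0.11 (adjusted p = 0.0226) without Vprbp siRNA with Activin replicate 3, so this value turned on 1 library. Gja1 gave 0.14 ± 0.06 (adjusted p = 0.456) with Activin, on the same side as without it. Among the others with an unadjusted p under 0.05 were Crb3, Cldn3, F11r and Pard6b, each with higher values in the Vprbp siRNA cells. The 7 genes as a whole did not all go in the same direction.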

How the data were processed

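RNA of 15 libraries was sequenced. The authors deposited raw fragment counts per gene symbol, without normalization; the submitters' processing notes name HTSeq 0.6.1p1 and mm10. Aligner, annotation and strandedness were not given in the sources used here. Without strand, overlapping genes cannot be told apart: exons of Cldn22 lie wholly under another gene on the opposite strand, and for the other junction genes at most 5.2% of exon bases overlap another gene. Of 24456 rows, 5 are tallies and were left out; 55.6% to 60.4% of fragments per library were assigned to genes.

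Groups and replicate numbers came from the sample titles. Genes passing filterByExpr (minimum count 10; 14600 genes) were scaled by TMM and tested with edgeR 4.0.16 (robust quasi-likelihood fit, 1 mean per group over all 15 libraries) in R 4.3.3, with Benjamini-Hochberg adjustment per comparison at 0.05. A gene can pass this filter through 1 group in which it is high. CPM use TMM-scaled library sizes, and limits taken as 3 counts cover counting error only. The code was tested on simulated data. DESeq2 1.42.0, other scalings and filters, a replicate block, left-out libraries and a fit without the 3 libraries that lay apart were alternatives.

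The genes, the partner, regulator, keratin and marker lists, the alternatives and the rule for genes given library by library were chosen with earlier results of these data known. That rule took up to 4 genes per direction and comparison with the largest fold change among called genes whose mean log2 CPM was at least 1, genes called in a knockdown comparison, and the most abundant gene of each role; others given by library were added after their values were seen. Same-numbered libraries deviated together in the untreated Vprbp and control siRNA groups, where the correlations of their deviations from the group means were 0.123, 0.196 and 0.369, and in no other pair of groups by the same rule (all above 0.1). Some genes of the set are counted but not reported here by name. No replicate pair agreed within sampling noise (chi-square over its degrees of freedom at least 2.81).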

Additional observations from a re-analysis of the deposited data

How the results depend on the processing

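The number of junction genes called was recomputed under alternative scalings, filters, tools and sample sets. Apart from leaving out 1 library, 102 of 112 such counts stayed within 1.5 times the count first given. The 112 include the comparisons of Vprbp siRNA with control siRNA and the difference of the Activin responses. Those counts began at 0, where few or no genes of the whole table passed, so their agreement says little. Of 454 values of genes called, 441 kept their direction and call, and no alternative turned a direction. With Activin against no addition in control siRNA cells, the 4 higher genes became 7 with DESeq2, 7 in a fit of only the libraries compared and 8 with a replicate block. The Vprbp siRNA comparison without Activin gave 1 higher gene, Gja1, with DESeq2, with a replicate block and without the 3 libraries that lay apart, and that with Activin gave 1 lower gene without those 3. Activin against no addition with Vprbp siRNA gave 3 higher and 1 lower in a fit of only the libraries compared, and 1 lower without those 3. The cause of these shifts was not tested. Replicate numbers paired no other groups; there the block changed the calls of single genes only by adding Cldn5, Marveld2, Ocln and Pkp2 with Activin in control siRNA cells and Pkp2 with Activin in Vprbp siRNA cells.

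For each comparison, the libraries of the groups compared were left out 1 at a time. This gave 1 to 3 higher and 0 to 2 lower genes for Activin, and 6 to 11 higher and 5 to 8 lower for SB. It gave 10 to 11 higher and 9 to 10 lower for Activin against SB. For Vprbp siRNA it gave 0 to 1 higher without Activin and 0 to 1 higher with Activin. For Activin with Vprbp siRNA it gave 3 to 12 higher and 1 to 3 lower. Calls kept under every alternative were 19 of 22 for Activin against SB, 10 of 19 for SB, 1 of 6 for Activin and 3 of 10 for Activin with Vprbp siRNA. Over all genes tested, DESeq2 called 31 and the replicate block 18 in the Vprbp siRNA comparison without Activin, where edgeR called 6. Near the limit of 3 counts, as for Cldn5 with SB, fold changes depend on few counts.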
